A study of Mus musculus with 281 samples.

Results

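The clustered protocadherins of the cells of the stria vascularis, the tissue of the cochlea that secretes endolymph, are described here. They were taken by name as all genes of the deposited table called Pcdha, Pcdhb or Pcdhg followed by a number or a letter and a number, which gave 56 of 47752 genes. These were 13 Pcdha genes (α), 22 Pcdhb genes (β) and 21 Pcdhg genes (γ), all on the plus strand of 1 chromosome (GRCm38). They followed each other in the order α, β, γ over 889 kb between the starts of the outermost genes. The γ gene Pcdhgc4 has no line of its own in the gene table used here and is described from its transcripts.

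Clustered protocadherins are cell surface proteins of the cadherin superfamily, and like copies on touching cells bind each other. Each α and γ gene has its own promoter and its own large first exon, which codes for the extracellular part, and splices it to constant exons that code for a cytoplasmic end common to the family. The β genes lack such constant exons and code for most of their protein in 1 exon. In neurons, where these genes are known best, a cell switches on a small and largely random set of the promoters with the help of CTCF and cohesin, so that neighbouring cells carry different combinations. The C-type genes (Pcdhac1, Pcdhac2, Pcdhgc3, Pcdhgc4 and Pcdhgc5), which end the α and the γ family, are known to be used more evenly from neuron to neuron.

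Single cells were picked with a micropipette and sequenced with Smart-Seq2, a method that reads whole transcripts and carries no molecular identifiers. Most cells came from Slc26a4+/+ mice of strain 129S6 (postnatal day 22 to 42), 40 from Slc26a4+/- mice (day 26 to 33) and 69 from Slc26a4-/- mice (day 24 to 44). The strain label of both groups with a mutant allele gives the genotype in place of a strain. The paper's methods place the mice of every genotype on the 129S6 background. Slc26a4 codes for pendrin, the anion exchanger that is lost in Pendred syndrome. The labels tie no cell to an animal, so each genotype counts as 1 sample, and the values below carry no test between groups. Intervals are exact binomial intervals at 95% and cover counting error only.

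The cells had a median of 1312950 estimated counts (1848 to 7932729), and 20 of them, all Slc26a4+/+, had under 100000. They came from 4 run dates, with 52, 26, 75 and 19 Slc26a4+/+ cells, 40 Slc26a4+/- cells on run date 4 alone, and 1, 46, 0 and 22 Slc26a4-/- cells. The clustered protocadherins and the genes of the study's genotype lists were not used for clustering. The cells clustered into intermediate cell-like (IMC-like, 89), spindle cell-like (SC-like, 34), root cell-like (RC-like, 35) and marginal cell-like cells (MC-like, 21), and 2 clusters of 85 and 17 cells were left unnamed. The 8 IMC markers summed to a median of 52617 CPM in the IMC-like cells and to 196.3 to 727 CPM in the other named cells. SC-like and RC-like cells are together called pendrin cells. Slc26a4 RNA averaged 969 CPM in the 39 pendrin cells labelled Slc26a4+/+, 554 CPM in the 8 labelled Slc26a4+/- and 793 CPM in the 22 labelled Slc26a4-/-, so its RNA does not tell the labels apart, and genotypes are given as labelled. The neuron markers had a median sum of 0 CPM in the IMC-like, SC-like and MC-like cells and of 0.34 CPM in the RC-like cells, and 3 of the 6 were at 0 in every IMC-like cell.

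A gene is called found in a cell from 10 estimated counts there. Single counts are not specific in these libraries: Slc26a4 had at least 1 count in 24 of the 41 IMC-like Slc26a4+/+ cells and at least 10 in 0 of them. It reached 10 counts in 1 of the 20 IMC-like cells labelled Slc26a4+/- and in 4 of the 28 labelled Slc26a4-/-, at up to 21.2 CPM. The threshold therefore does not remove all such signal. At least 1 of the 56 genes was found in 75.4% of all cells (interval 69.98 to 80.4), that is, in all but 69. The γ family was found in 64.4% of cells and held 62% of all clustered protocadherin counts. The β family was found in 46.6% of cells and held 37.5%. The α family was found in 5 cells (1.78%) and held 0.503%. All 22 β and 21 γ genes were found in at least 1 cell, against 3 of the 13 α genes, so 46 genes were found and 10 were not.

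**Figure D1:**
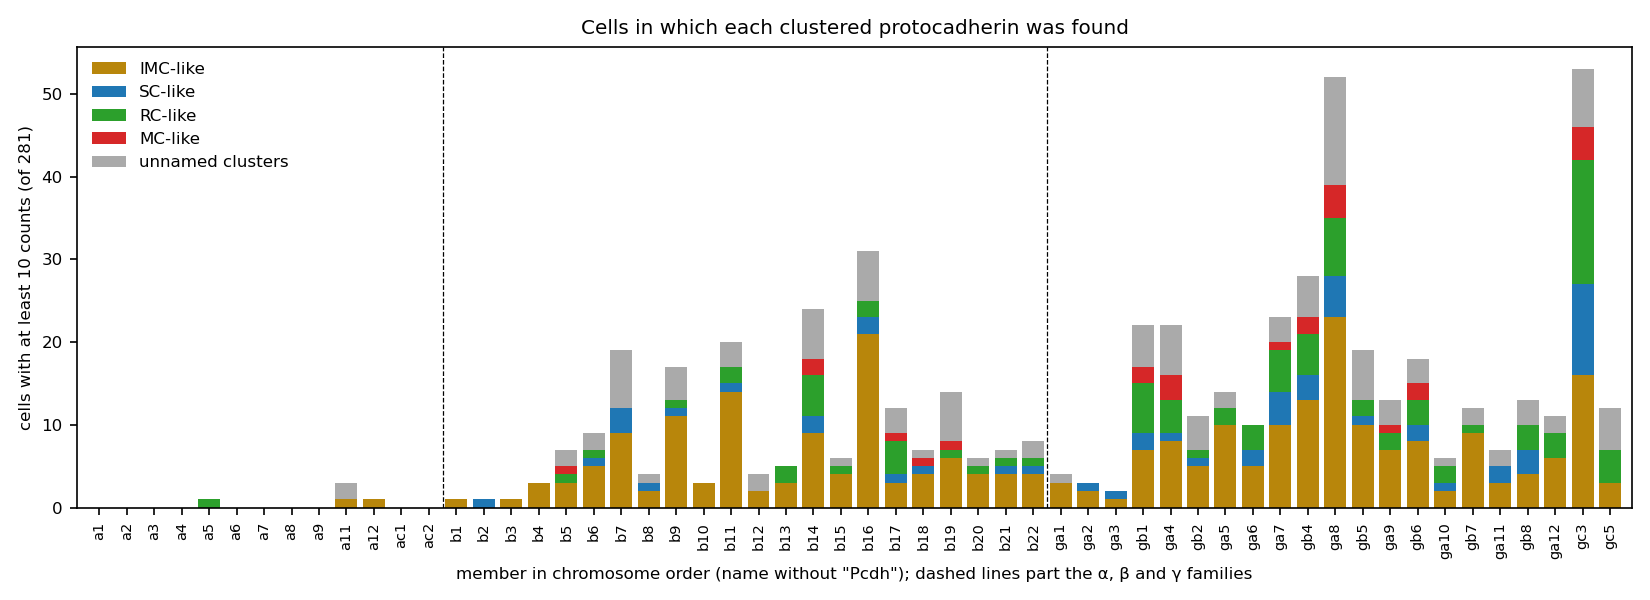
The bars give, for each of the 56 genes in chromosome order, the number of cells with at least 10 counts, coloured by cell type. The α genes are close to empty, the β and γ families hold peaks at Pcdhb16 (31 cells), Pcdhga8 (52) and Pcdhgc3 (53), and the first genes of the β family and Pcdhga1 to Pcdhga3 are found in at most 4 cells each. The Pcdhga8 line also holds reads of Pcdhgc4.

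Each gene was found in few cells. The most widespread, Pcdhgc3, was found in 53 cells (18.9%), 9 genes in at least 20 cells, and 14 genes in 1 to 5 cells. Ctnna1, the α-catenin that anchors classical cadherins, was found in 76.2% of cells, but at a mean of 258.1 CPM over all cells against 23.7 CPM for Pcdhgc3. Genes outside the cluster with a mean nearer that of Pcdhgc3 were found less widely. Examples were Ctcf (29.3 CPM, 24.9% of cells), Rad21 (17.7 CPM, 20.6%) and Pcdh20 (35.2 CPM, 10.3%), so few cells per gene is not particular to this family. Where a protocadherin was found it was not low: over the 569 pairs of a gene and a cell the level had a median of 98.4 CPM, with quartiles of 32.6 and 243.5 CPM and a highest value of 1482 CPM (Pcdhb19). Of these 569 pairs, 49.6% lay at 100 CPM or above and 94 below 20 CPM. Another 862 pairs had 1 to 9 counts and were not called found. The genes were spread over the run dates as well, since 24 of the 46 were found on all 4 run dates and 7 on 1.

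Cells differed in how many genes they carried and in which. None was found in 69 cells, 1 gene in 53 cells, 2 in 63, 3 in 44, 4 in 28 and 5 or more in the other 24, up to 11 in 1 IMC-like cell of 2333000 counts. Cells without any were also found among the deepest: 33 cells with at least 1000000 counts had none, of which 7 were IMC-like, 5 pendrin, 4 MC-like and 17 unnamed. Over all cells, the number found had a Spearman correlation with total counts of 0.26, and the summed CPM one of -0.05. With each cell of at least 100000 counts drawn down to that number, the correlation was -0.09.

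Combinations of genes seldom recurred. Of the cells with at least 2 genes, 17 shared their exact set with another cell. How many would do so by chance, with each gene found in few cells, was not tested. Nor was it tested whether sets of other genes of like level recur more often. Single-gene sets recurred more, led by the Pcdhga8 line alone in 9 cells and Pcdhgc3 alone in 6. That line of the gene table also holds reads of Pcdhgc4, as described below. The set in most cells after the single-gene sets was the Pcdhga8 line with Pcdhgc3, in 5 cells. In a cell with a found gene, the leading one held a median of 70.9% of the clustered protocadherin counts (quartiles 51.5% and 89.7%), and 37 different genes led in at least 1 cell. The leading gene held at least 50% in 77.4% of these cells. The Pcdhga8 line led in 19 cells, Pcdhgc3 in 18, Pcdhb16 in 16 and Pcdhga4 in 13. Both a β and a γ gene were found in 100 cells, only β genes in 31 and only γ genes in 81, α genes aside.

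**Figure D2:**
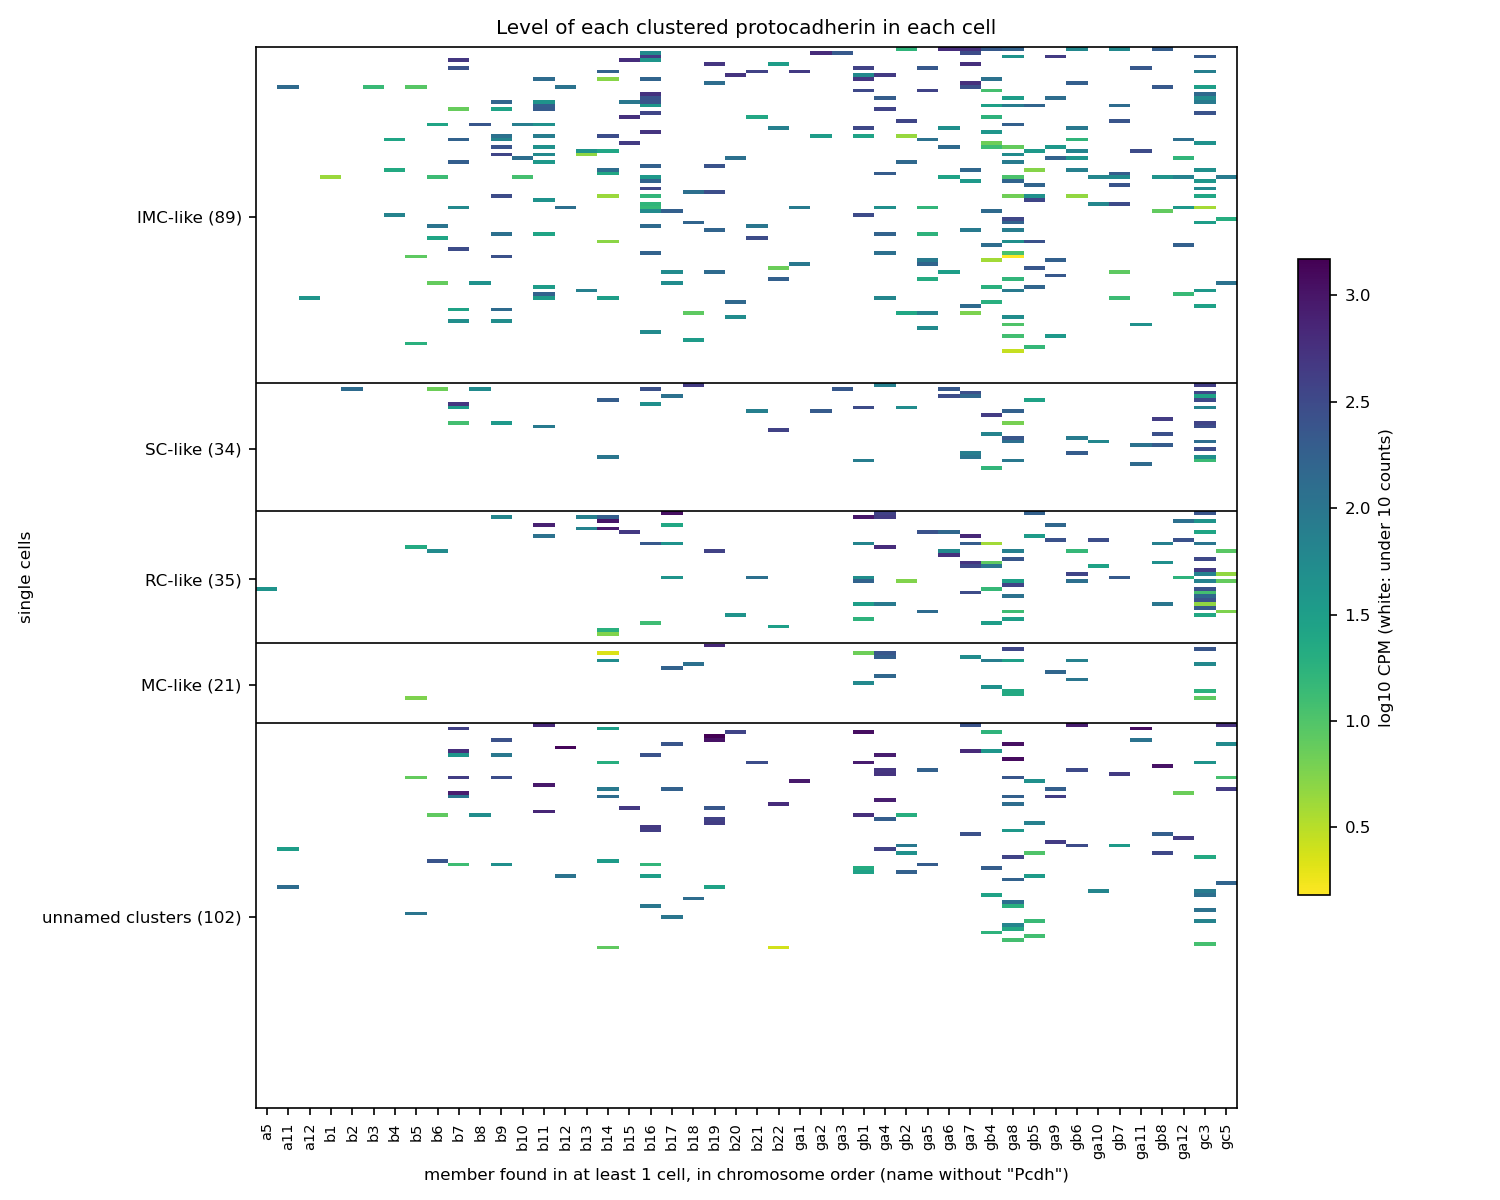
Rows are all cells by cell type, ordered within a type by their summed level, columns the 46 genes found in at least 1 cell, and the colour the log10 of CPM where a gene had at least 10 counts. Coloured cells are scattered over the columns, with no column filled in any cell type, and rows with no colour are the 69 cells without a found gene.

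Some pairs of genes shared more cells than others. The Pcdhga8 line and Pcdhgc3, the 2 most widespread lines of the gene table, were found together in 15 cells. These were 28.8% of the cells with the Pcdhga8 line and 28.3% of those with Pcdhgc3. Of the counts of the Pcdhga8 line, 65.7% came from Pcdhgc4 transcripts, mostly a short one made largely of constant exons, which Pcdhgc3 shares. The part of this sharing in the overlap was not tested. Pcdhb7 and Pcdhb9, which lie 2 places apart, were found together in 8 cells, 42.1% of the Pcdhb7 cells and 47.1% of the Pcdhb9 cells. Pcdhb9 and Pcdhb11 shared 6 cells, 35.3% of the Pcdhb9 cells and 30% of the Pcdhb11 cells. These shares are descriptions over cells that share run dates. The β genes resemble each other in sequence, and how the quantifier divided reads between them was not tested.

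In the α family 9 of the 13 genes had no count in any cell, the C-type genes Pcdhac1 and Pcdhac2 among them. Pcdha11 was found in 3 cells, with a median of 130.971 CPM there, and Pcdha12 and Pcdha5 in 1 cell each, at 40.5 and 42.9 CPM. Pcdha4 had 1 count in all. These 3 α genes lay in cells of different kinds, as Pcdha11 was found in 1 IMC-like and 2 unnamed cells, Pcdha12 in an IMC-like cell and Pcdha5 in an RC-like cell.

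In the β family the genes at the start were the least used: Pcdhb1, Pcdhb2 and Pcdhb3 were found in 1 cell each and Pcdhb4 in 3. Pcdhb1 is known as an atypical β gene whose promoter lacks the element that the others share. Pcdhb16 was the most widespread β gene. It was found in 31 cells, where its level ran to 536 CPM with a median of 159.4 CPM, and 21 of the 31 were IMC-like. Pcdhb14 followed with 24 cells and a lower median of 32.6 CPM, although its highest cell had 1004 CPM. Pcdhb11 was found in 20 cells (median 83.1 CPM), Pcdhb7 in 19 (171.7 CPM), Pcdhb9 in 17 (117.2 CPM) and Pcdhb19 in 14 (331 CPM). Width of use and level in use did not go together, as Pcdhb15 was found in only 6 cells but at a median of 475 CPM, and Pcdhb12 in 4 cells at 114.6 CPM. Per length, in TPM, the median where found was 39.2 for Pcdhb16, 75.8 for Pcdhb7, 61.6 for Pcdhb19 and 260.8 for Pcdhb15. In Pcdhb22 a transcript annotated with 2 exons held 30.2% of the counts.

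In the γ family Pcdhga1, Pcdhga2 and Pcdhga3, which lie first, were found in 4, 3 and 2 cells. The genes after them ranged from 6 cells for Pcdhga10 and 7 for Pcdhga11 upwards. Besides the Pcdhga8 line and the C-type genes, the most widespread were Pcdhgb4 in 28 cells, Pcdhga7 in 23, Pcdhgb1 and Pcdhga4 in 22 each and Pcdhgb5 in 19. Where found, Pcdhga7 had a median of 267.7 CPM, Pcdhga4 218.4 CPM, Pcdhgb1 122.4 CPM, Pcdhgb5 45.4 CPM and Pcdhgb4 28.9 CPM. In TPM these medians were 84.5, 63.1, 36.6, 13.1 and 11.5, so Pcdhga7 and Pcdhga4 stood above Pcdhgb4 per length as well. Each of the 5 was found in IMC-like, SC-like and RC-like cells.

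The C-type gene Pcdhgc3 was the most widespread of all, with a median of 69.1 CPM in its 53 cells and a highest value of 455 CPM. Pcdhgc5 was found in 12 cells at a median of 37.6 CPM, with 5 of the 12 in the unnamed clusters. The third C-type γ gene, Pcdhgc4, had no line in the gene table, but its transcripts were quantified. The value of Pcdhga8 in the table equalled, to within 0.988 counts in every cell, the sum of its only transcript and of 2 transcripts annotated to Pcdhgc4. Of its 9582 counts, 34.6% came from the Pcdhga8 transcript and 65.7% from a short coding transcript and a retained-intron transcript of Pcdhgc4, the shares passing 100 because the table drops decimals. The Pcdhga8 transcript alone had at least 10 counts in 13 of the 52 cells counted for Pcdhga8, and in 39 of the 52 it had under 1. Values under Pcdhga8 are therefore given as those of its line in the table, which holds the reads of 2 genes.

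The short coding transcript of Pcdhgc4 carried 5789 of these counts and had at least 10 in 35 cells, 22 of which held another found γ gene and 13 none. Its 2272 bases hold 2119 bases of the 3 constant exons, which the γ genes share, so 93.3% of it is constant sequence. The full-length Pcdhgc4 transcript, with 2905 bases of its own, had 78.8 counts over all cells, against 9517 for the full-length transcript of Pcdhgc3 and 1826 for that of Pcdhgc5. Those 2119 bases also stand in other γ transcripts, and the part of reads from these in the count of the short transcript was not tested. Without the Pcdhga8 line the mean number of genes found per cell was 1.84 in place of 2.02.

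Transcripts without any constant exon held 20.9% of the γ counts. They do not code for the common cytoplasmic end. A Pcdhga7 transcript of a single exon of 3044 bases held 6810 counts against 5377 for the full-length one. A Pcdhgb1 transcript of 2 exons held 6056 against 4614 for the full-length one, but 1038 of its bases overlap the first exon of Pcdhga4. At least 10 counts of both were held by 4 cells, of 18 with this transcript and 22 with Pcdhga4. The part of shared reads in either count was not tested. In Pcdhgb4 a transcript of 2 exons that does not code for protein and in part overlaps Pcdhga8 held 44.5% of the counts and had at least 10 in 22 cells. The full-length Pcdhgb4 transcript had at least 10 in 8 cells. A retained-intron transcript of Pcdhgc3 held 2287 counts. The sources used here do not state that counting used strand, and constant exons are shared, so the split of γ counts among genes is uncertain.

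**Figure D3:**
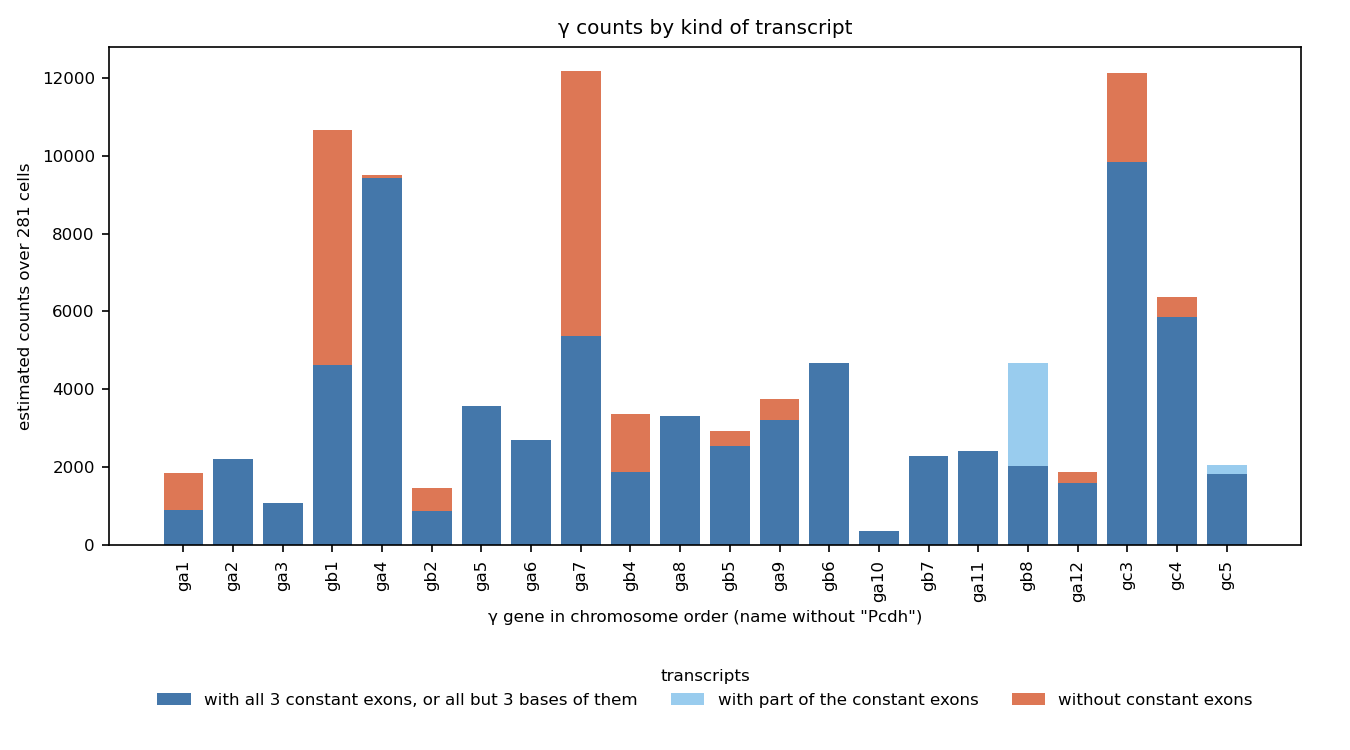
Bars give the estimated counts over all cells of each γ gene, Pcdhgc4 included, divided by whether its transcripts carry all, part or none of the constant exons. Transcripts without constant exons are the larger part for Pcdhga1, Pcdhgb1 and Pcdhga7 and are absent for genes such as Pcdhga5 and Pcdhgb6.

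Cell types were compared in Slc26a4+/+ cells. The summed level of the 56 genes averaged 367 CPM in the 41 IMC-like cells (quartiles 111.5 and 539), 345 CPM in the 16 RC-like cells (42.1 and 469), 290 CPM in the 23 SC-like cells (22.1 and 426) and 142.1 CPM in the 14 MC-like cells (5.03 and 170). The first 3 types lay within each other's quartiles. MC-like cells, which secrete potassium into the endolymph, were lowest, with a log2 difference of -1.25 from the other named cells together, and their range (0 to 672 CPM) overlapped that of each other type. The median over cells set MC-like cells lower still, at 49.3 CPM against 362 CPM in IMC-like cells. Between the days of collection with at least 3 IMC-like cells the mean ran from 125.5 to 589 CPM, and between those with at least 3 MC-like cells from 57.95 to 230.1 CPM. In the run dates with all 4 types the order varied: on run date 1 the 2 MC-like cells averaged 337 CPM, above the 3 SC-like cells at 184.1 CPM. CPM is a share of a cell's reads, so a lower level of these genes and more RNA of other genes cannot be told apart.

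The number of genes found per cell followed a like order. IMC-like Slc26a4+/+ cells had a mean of 2.80 genes (median 2, 0 to 11), RC-like cells 1.94 (median 2, 0 to 5), SC-like cells 1.61 (median 2, 0 to 6) and MC-like cells 0.786 (median 1, 0 to 2). At least 1 gene was found in 37 of 41 IMC-like cells (90.2%, interval 76.9 to 97.3), 14 of 16 RC-like, 16 of 23 SC-like and 8 of 14 MC-like cells (57.1%, 28.9 to 82.3). Drawn down to 100000 counts a cell, the expected numbers with at least 1 count were 3.12, 2.39, 2.11 and 1.13, with 3 shallower cells left out. Over all run dates together, the order of the means was the same at equal depth. By run date it varied. On run date 3, with 26 of the 41 IMC-like cells, their mean was 3.27, and on run dates 1, 2 and 4 it was 2.00. As counted, IMC-like cells were highest on run dates 1, 2 and 3. On run date 4 the 5 RC-like cells were above the 7 IMC-like cells, with 2.60 against 2.00 genes. At equal depth these were 3.57 against 2.78. On run date 2 the 2 SC-like cells were above the 5 IMC-like cells at equal depth, with 2.22 against 2.13.

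The kinds of gene found varied between types as well. Over all genotypes β genes made up 42.5% of the genes found in IMC-like cells. Their part was 28.6% for SC-like, 25% for RC-like and 24% for MC-like cells. The part in IMC-like cells varied with the run date. In those labelled Slc26a4+/+, β genes made up 1.77 of a mean of 3.27 genes on run date 3. On run dates 1, 2 and 4 they made up 0.33, 0.60 and 0.57 of 2.00. In those labelled Slc26a4-/- they made up 1.35 of 3.06 on run date 2 and 1.82 of 4.64 on run date 4. The C-type genes Pcdhgc3 and Pcdhgc5 made up 6.96% for IMC-like, 19.6% for SC-like, 20.7% for RC-like and 16% for MC-like cells. Pcdhgc3 itself was found in 16 of 89 IMC-like cells (17.98%, interval 10.6 to 27.5), 11 of 34 SC-like (32.4%, 17.4 to 50.5), 15 of 35 RC-like (42.9%, 26.3 to 60.6) and 4 of 21 MC-like cells. Its median where found was 45.7 CPM in IMC-like, 289.6 CPM in SC-like and 103.3 CPM in RC-like cells. Pcdhb16 ran the other way, found in 21 of 89 IMC-like cells (23.6%, 15.2 to 33.8), in 4 of 69 pendrin cells (5.80%, 1.602 to 14.2) and in 0 of 21 MC-like cells, which allows a share of up to 16.1% by the exact interval. In Slc26a4+/+ cells alone the contrast was the same in direction: Pcdhgc3 was found in 3 of 41 IMC-like and 9 of 39 pendrin cells, and Pcdhb16 in 9 of 41 and 2 of 39. In Slc26a4+/+ cells the other 3 types lay within the intervals of one another for Pcdhgc3, with 5 of 23 SC-like (21.7%, 7.46 to 43.7), 4 of 16 RC-like (25%, 7.27 to 52.4) and 3 of 14 MC-like cells (21.4%, 4.66 to 50.8), and all 6 RC-like cells labelled Slc26a4+/- had it. Over all cell types Pcdhgc3 was found in 11.6% of Slc26a4+/+, 37.5% of Slc26a4+/- and 26.1% of Slc26a4-/- cells.

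**Figure D4:**
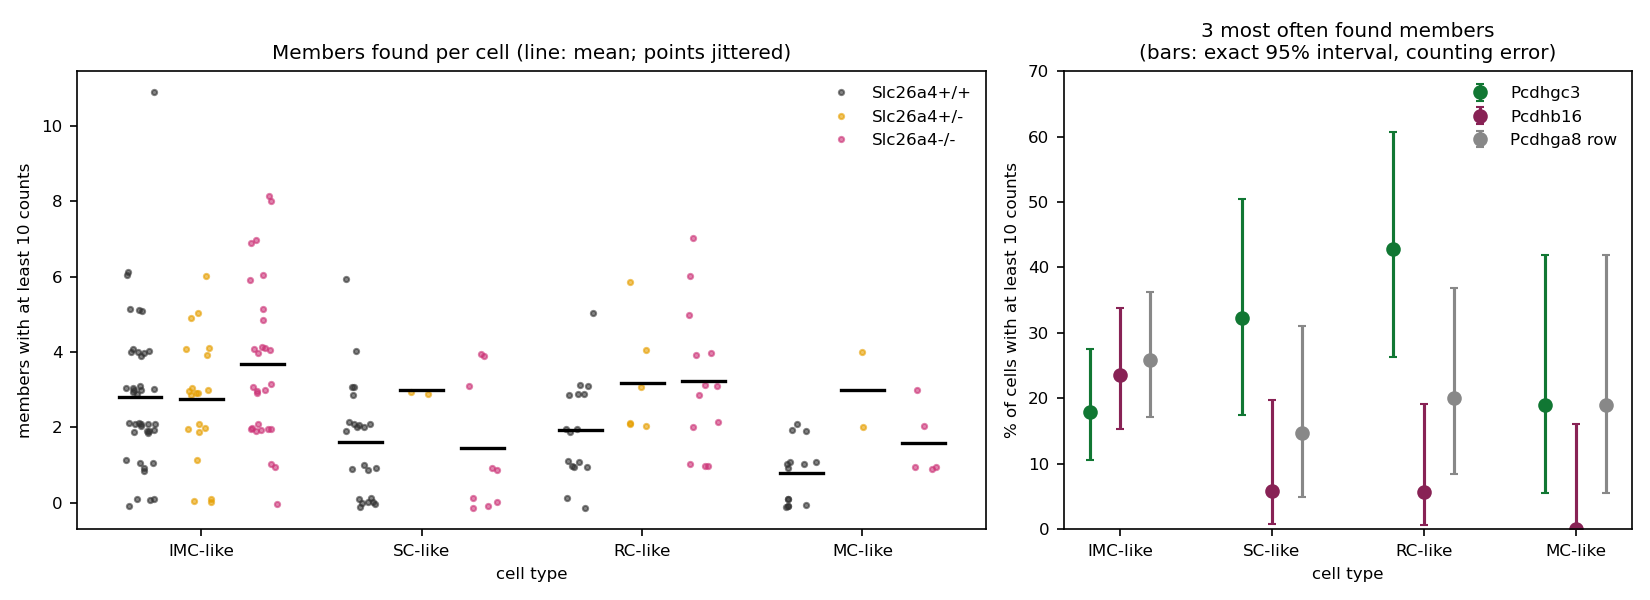
The left panel gives the number of genes with at least 10 counts in each cell of the 4 named types by genotype, with the mean as a line. The right panel gives the share of cells of each type, all genotypes together, in which Pcdhgc3, Pcdhb16 and the Pcdhga8 line were found, with exact 95% intervals: Pcdhb16 is highest in IMC-like cells (23.6%), and Pcdhgc3 in RC-like cells (42.9%), where the share in Slc26a4+/+ cells alone was 25%.

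Gene by gene, few cells decide where a protocadherin appears highest. A gene was called in a cell type where its mean in Slc26a4+/+ cells was at least 2-fold above the next of the 4 types (pseudocount 1 CPM). Of the 56 genes, 38 had a mean of at least 1 CPM in a type, and a gene passes this filter through the type in which it is high. IMC-like cells called 13 of the 38 (34.2%), against 9.69% of all 14653 genes tested. RC-like cells called 7 (18.4%, all genes 12.8%), SC-like cells 4 (10.5%, all genes 9.07%) and MC-like cells 2 (5.26%, all genes 6.17%). Of these 26 calls, 9 rested on a single cell with the gene found in that type, 12 on 2 or 3 cells and 5 on 4 or more. With each gene's highest cell left out, 8 of the 26 calls were kept, and 6 genes were called in another type.

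The 5 calls with 4 or more cells were all in IMC-like cells. They were Pcdhb16 (9 cells, 40.7 CPM on average against at most 13.8 CPM in another type), Pcdhgb5 (6 cells, 25.8 against at most 0.27 CPM), Pcdhga5 (5 cells, 18.9 CPM, and 0 CPM in the other types), Pcdhb6 (5 cells, 4.34 CPM) and Pcdhb9 (4 cells, 6.94 CPM). IMC-like cells also make up the most Slc26a4+/+ cells of the 4 types, 41 of 94. Outside them, Pcdhgb8 was found in 3 of 23 SC-like cells, at 197.3, 272.2 and 430 CPM, and in 1 of 41 IMC-like cells, at 43.3 CPM. Pcdhb14 averaged 58.3 CPM in RC-like cells and no more than 2.12 CPM elsewhere, but its 3 RC-like cells stood at 5.57, 18.9 and 900.1 CPM, so 1 cell held most of that mean. Over all genotypes 9 genes were found in all 4 types and 10 in 1 type only, and 44 of the 46 found genes were found in IMC-like cells.

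In cells labelled Slc26a4-/- the mean number of genes found per cell was higher in IMC-like cells and in the pooled pendrin cells. IMC-like cells had a mean of 3.68 genes (median 3, 0 to 8) in the 28 cells labelled Slc26a4-/- and 2.80 in the 41 labelled Slc26a4+/+. Pendrin cells had 2.50 (median 2.5, 0 to 7) in the 22 labelled Slc26a4-/- and 1.74 in the 39 labelled Slc26a4+/+. Split by type, RC-like cells had 3.23 in the 13 labelled Slc26a4-/- and 1.94 in the 16 labelled Slc26a4+/+. SC-like cells went the other way as counted, with 1.44 in 9 cells and 1.61 in 23. At 100000 counts a cell the means were 3.95 against 3.12 in IMC-like and 3.01 against 2.22 in pendrin cells. By type they were 2.35 against 2.11 in SC-like and 3.47 against 2.39 in RC-like cells. The differences in IMC-like and in pooled pendrin cells had the same direction within the run dates that held both labels. In IMC-like cells the means were 3.06 against 2.00 on run date 2 and 4.64 against 2.00 on run date 4. In pendrin cells they were 1.80 against 1.33 and 4 against 2, with 3 Slc26a4+/+ pendrin cells on run date 2 and 8 on run date 4. The cell mix differed, as on run date 4 the 7 Slc26a4-/- pendrin cells were all RC-like. The Slc26a4+/+ ones were 5 RC-like (mean 2.6) and 3 SC-like cells (mean 1). Without run date 4 the difference was 0.09 genes in IMC-like and 0.12 genes in pendrin cells, and without run date 2 it was 1.72 and 2.22. Day-to-day spread was as large, as the mean over days with at least 3 cells ran from 1 to 4.67 genes in IMC-like Slc26a4+/+ cells and from 2.20 to 5.00 in IMC-like Slc26a4-/- cells. Depth moved with the label on run date 4, where the median was 4072680 counts in the 11 IMC-like Slc26a4-/- cells and 1831850 in the 7 Slc26a4+/+ cells. At 100000 counts the difference there was 1.71 genes, and 2.64 as counted.

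The summed level averaged 458 CPM in IMC-like cells labelled Slc26a4-/- and 367 CPM in those labelled Slc26a4+/+, a log2 difference of 0.32, and 471 against 313 CPM in pendrin cells, a log2 difference of 0.59. Both lie within the spread between collection days of Slc26a4+/+ cells, whose SD was 0.73 in IMC-like and 0.87 in pendrin cells on the log2 scale. By family, the β genes of IMC-like cells averaged 235.8 against 148.8 CPM and the γ genes 215.4 against 217.8 CPM. The β genes were higher under the label Slc26a4-/- within run date 2 (263.2 against 18.5 CPM) and within run date 4 (193.5 against 87.5 CPM). The γ genes were lower within run date 2 (234.01 against 373 CPM) and higher within run date 4 (186.7 against 115.9 CPM). In pendrin cells the γ genes averaged 365 against 214.3 CPM and the β genes 106.3 against 97.3 CPM. Both families were higher there within each of the 2 run dates. The γ genes stood at 389 against 219.6 and 312.7 against 222.8 CPM, the β genes at 77.2 against 3.29 and 168.5 against 31.4 CPM. As a ratio the β genes differed more within each run date, and the γ genes more over all run dates. Run date 2 held 3 Slc26a4+/+ pendrin cells and run date 4 held 8.

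Single genes went both ways. With a mean of at least 1 CPM under either label, 40 of the 56 genes could be compared in IMC-like cells: 13 (32.5%) were at least 2-fold higher in cells labelled Slc26a4-/- and 17 (42.5%) at least 2-fold lower, against 14.3% and 20.2% of all 12889 genes compared. In pendrin cells 13 of 37 (35.1%) were higher and 19 (51.4%) lower, against 16.7% and 25.9% of 13892 genes. A gene enters through the label under which it is high, so these shares are no support for a change of the family. The median log2 difference was 0.01 over the 40 genes in IMC-like cells and -1.07 over the 37 in pendrin cells, against -0.14 and -0.18 over all genes compared, and -1.12 in pendrin cells with genes at 0 under one label set to their bound. Without the highest cell of each gene, 15 of the 30 calls in IMC-like cells and 13 of the 32 in pendrin cells were kept. Without run date 3, which held 26 of the 41 IMC-like Slc26a4+/+ cells, 22 genes were higher and 8 lower in IMC-like cells. Without it 15 were higher and 11 lower in pendrin cells. Of 34 genes compared in both, 6 were higher in both (all genes 3.42%), 9 lower in both (6.39%) and 9 went in opposite directions (6.24%).

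Within run date 2 and within run date 4 alike, 8 genes with a mean of at least 10 CPM were at least 2-fold higher in IMC-like cells labelled Slc26a4-/-, of 21 compared (all genes 13.4%), and 2 were lower (all genes 5.39%). Pcdhb9 was found in 6 of 28 cells labelled Slc26a4-/- at 112.7 to 349 CPM and in 4 of 41 labelled Slc26a4+/+ at 27.6 to 133.4 CPM, with means of 46.1 and 6.94 CPM and a log2 difference of 2.57. Pcdhb15 was found in 3 Slc26a4-/- cells, at 97.5, 554 and 599 CPM, and had 0 counts in all 41 Slc26a4+/+ cells. Against a floor of 3 counts over these 41 cells it was at least 477-fold higher, a bound that covers counting error only and not the spread between cells. Pcdhga6 was found in 3 against 2 cells (means 27.5 and 1.83 CPM, log2 3.33), Pcdhgb4 in 6 against 3 (19.02 and 2.20 CPM, log2 2.65), Pcdhgb8 in 3 against 1 (15.04 and 1.31 CPM, log2 2.80) and Pcdhga9 in 3 against 1 (10.6 and 4.42 CPM, log2 1.10). Run dates 2 and 4 held only 5 and 7 IMC-like Slc26a4+/+ cells, so these calls rest on few cells. Pcdhb15, Pcdhga6 and Pcdhga9 had a mean of 0 CPM in the Slc26a4+/+ cells of both run dates. Here too a gene enters through the label under which it is high, so the share called is no support for a change of the family.

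Pcdhgc3 and Pcdhb16 also met that rule. Pcdhgc3 was found in 8 of 28 IMC-like cells labelled Slc26a4-/- (28.6%, interval 13.2 to 48.7) and in 3 of 41 labelled Slc26a4+/+ (7.32%, 1.54 to 19.9), all 3 on run date 3, and its means were 15.1 and 8.82 CPM (log2 0.71). Pcdhb16 averaged 38.7 CPM and 40.7 CPM over all run dates (log2 -0.07), with 7 of 28 and 9 of 41 cells, although it was higher in Slc26a4-/- cells within each of the 2 run dates. The 2 lower genes were Pcdhgb5, found in 2 against 6 cells (7.33 and 25.8 CPM, log2 -1.69), and Pcdhgb7, found in 3 against 4 cells (2.93 and 16.9 CPM, log2 -2.19).

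In pendrin cells 5 of 19 genes were higher within both run dates (all genes 16.7%) and 0 were lower (all genes 5.3%). Run date 2 held only 3 Slc26a4+/+ pendrin cells and run date 4 only 8, and the limit of the filter given above applies here as well. Pcdhga4 was found in 4 of 22 cells labelled Slc26a4-/-, at 73.7, 86.9, 442 and 612 CPM, and had 0 counts in all 39 labelled Slc26a4+/+, which is at least 623-fold higher against a floor of 3 counts over these cells, again for counting error only. Its neighbour Pcdhgb1, 1 of whose transcripts overlaps it, was found in 4 against 3 cells (62.2 and 3.79 CPM, log2 3.72). Pcdhga7 was found in 4 against 3 cells (70.4 and 17.4 CPM, log2 1.95), Pcdhga6 in 4 against 1 (48.8 and 5.64 CPM, log2 2.91) and Pcdhb16 in 2 against 2 (10.8 and 8.20 CPM, log2 0.36). Pcdhga6 was the 1 gene besides Pcdhb16 that met the rule in both groups of cells. In IMC-like cells Pcdhga4 was found under both labels, in 3 of 28 cells and in 3 of 41.

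**Figure D5:**
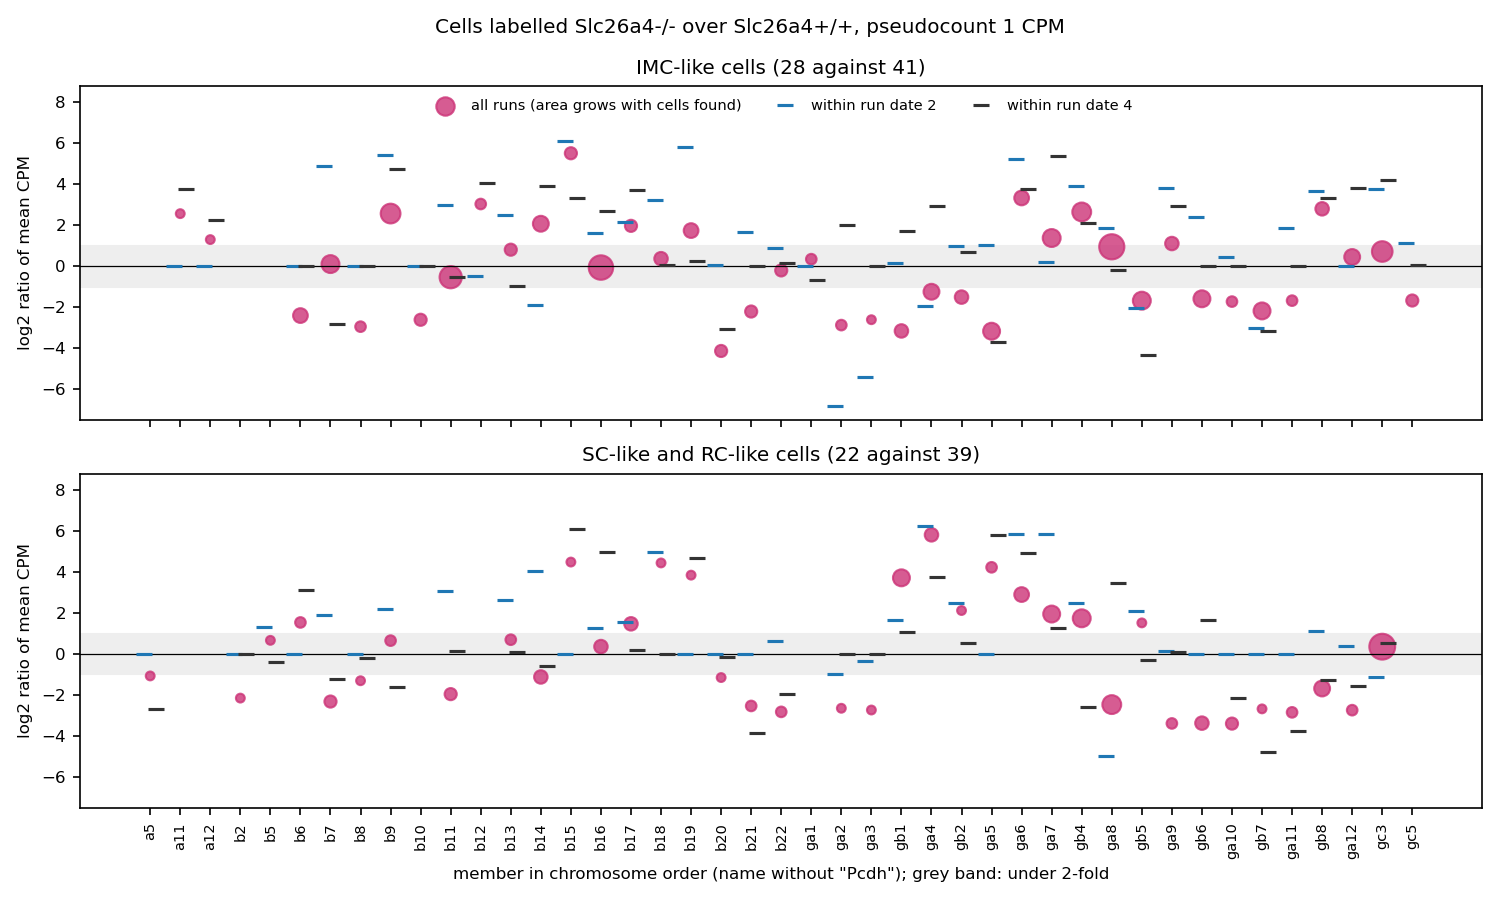
Points give, for each gene with a mean of at least 1 CPM under either label, the log2 ratio of the mean CPM in cells labelled Slc26a4-/- over Slc26a4+/+ (pseudocount 1 CPM), their area the number of cells with the gene found, and short lines the same ratio within run dates 2 and 4. Many points lie outside the grey band of 2-fold in both directions, and the lines of many genes lie far from their point or on the other side of 0.

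The other protocadherins that the study's supplementary gene lists name were found in few cells. Pcdhb19 was found in 3 of 28 IMC-like Slc26a4-/- cells and 2 of 41 Slc26a4+/+ cells (33.5 and 9.35 CPM), Pcdhb12 in 2 and 0 (8.18 and 0.12 CPM), Pcdhb7 in 2 and 6 (19.7 and 18.4 CPM) and Pcdhb11 in 7 and 6 (11.5 and 17.2 CPM). The last 2 were within 2-fold. In pendrin cells Pcdhb11 was found in 1 of 22 and 2 of 39 cells (5.09 and 22.7 CPM), and Pcdhb7 in 1 and 2 (1.90 and 13.5 CPM).

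Cells labelled Slc26a4+/- came from run date 4 alone. The 20 IMC-like cells had a mean of 2.75 genes found and a summed level of 444 CPM, against 2.00 genes and 203.5 CPM in the 7 Slc26a4+/+ cells of that run date and 2.80 genes and 367 CPM in all 41. The mean difference from all Slc26a4+/+ cells, -0.05 genes, was 0.75 without run date 3. The 8 pendrin cells had 3.12 genes and 679 CPM, against 2.00 and 260 CPM in the 8 Slc26a4+/+ cells of the run date. At equal depth the means within run date 4 were 2.88 against 2.78 genes in IMC-like cells and 3.28 against 2.71 in pendrin cells. The difference in IMC-like cells there was thus 0.10 genes at equal depth, and 0.75 as counted. Of 38 genes compared in IMC-like cells 10 (26.3%) were at least 2-fold higher and 16 (42.1%) lower, against 12.2% and 23% of all 12706 genes. These genes, too, enter through the label under which they are high. Pcdhgc3 was found in all 8 pendrin cells labelled Slc26a4+/- (interval 63.1 to 100), at 11.8 to 332 CPM, against 1 of 8 Slc26a4+/+ and 4 of 7 Slc26a4-/- pendrin cells of the same run date. Over all run dates it was found in 9 of 39 Slc26a4+/+ pendrin cells (23.1%, 11.1 to 39.3) and 9 of 22 Slc26a4-/- pendrin cells (40.9%, 20.7 to 63.6). The Slc26a4+/+ pendrin cells of run date 4 had a median of 1569670 counts, the Slc26a4+/- cells 2057860, and the part of depth in this difference was not tested.

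Of the 12 non-clustered protocadherins, 5 of the 7 with a mean of at least 1 CPM were called in a cell type (all genes 37.7%). Pcdh20 averaged 143.5 CPM in SC-like Slc26a4+/+ cells and no more than 2.78 CPM in another type, Pcdh1 86.2 CPM in SC-like and 60.7 CPM in RC-like cells, and Pcdh15, a part of the tip link of hair cells, 16.7 CPM in RC-like cells. Between the labels Slc26a4-/- and Slc26a4+/+, 1 of 3 was higher and 0 lower in IMC-like cells (all genes 14.3% and 20.2%), and 2 of 8 were higher and 4 lower in pendrin cells (all genes 16.7% and 25.9%). Of the 10 classical cadherins and catenins, 0 of 6 and 0 of 7 were past 2-fold in these 2 groups. Jup, Ctnna1 and Ctnnd1, catenins that tie cadherins to the cytoskeleton, were found in 63.7%, 76.2% and 51.2% of cells.

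The 13 genes known to act on protocadherin promoter choice, among them Ctcf, cohesin subunits and DNA methyltransferases, were all expressed at a mean of at least 1 CPM, and 3 were at least 2-fold higher and 3 lower in IMC-like cells labelled Slc26a4-/-, where 14.3% and 20.2% of all genes were. In pendrin cells 2 of the 13 were higher and 1 lower, against 16.7% and 25.9% of all genes. Stag2, a cohesin subunit, averaged 192.1 CPM over all cells, Dnmt3a, a DNA methyltransferase, 127.7 CPM and the repressor Rest 100 CPM. Ctcf itself averaged 29.3 CPM and was found in 70 cells. Of the 9 partners of the cytoplasmic ends, 0 of 8 were higher and 3 lower in IMC-like cells (all genes 14.3% and 20.2%), and 3 of 9 were higher and 2 lower in pendrin cells (all genes 16.7% and 25.9%). The highest were Nckap1 (195.042 CPM), Cyfip2 (121.7 CPM) and Cyfip1 (87.9 CPM), members of the complex that drives actin branching, and Nckap1 was called in IMC-like cells, at 475 CPM against at most 100 CPM in another type.

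The genes outside the cluster most like its summed level were described over the Slc26a4+/+ cells with at least 100000 counts, among 10165 genes with a mean of at least 10 CPM. They were Snhg11 (Spearman rho 0.43), Prelp (0.40), PISD (0.37), Nrcam (0.36) and Fxyd3 (0.36), over cells that share run dates and differ in depth. The lowest values were -0.35, for Fermt3 and Spc25.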

How the data were processed

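Stria vascularis was dissociated with collagenase and 281 cells (172 Slc26a4+/+, 40 Slc26a4+/-, 69 Slc26a4-/-) were picked singly. Per the paper's methods, Smart-Seq2 libraries were quantified by the authors with Kallisto on GRCm38 (mm10), versions and annotation release not given in the sources used here. The deposited gene table gives estimated counts without decimals, and the deposited transcript files give estimated counts and TPM. No molecular identifiers were used. The 17 table columns that matched no sample were not used. Estimated counts were scaled to CPM by each cell's total. Cells were clustered in Seurat 5.3.0 (10 components, resolution 0.8) without the 56 genes and without the genes of the study's genotype lists. This left out 105 of the 2000 variable genes, 15 of them clustered protocadherins. Types were named from marker lists. Depth per cell is given in the report. Doublets were not called, since cells were picked singly. Each cell is 1 sample and no animal is named, so genotypes and types were compared by means, counts of cells and 2-fold calls (pseudocount 1 CPM, mean of at least 1 CPM), with no test between groups. Named genes were the C-type genes, the 6 other genes of each family found in the most cells, genes 2-fold in 1 direction within run dates 2 and 4, genes in the study's supplementary lists, and the 5 most like the summed level. Members and lists were chosen with earlier results of these data known. Alternatives covered count thresholds, depth, pseudocount, filters, cell sets and run dates. The calculations were tested on simulated data.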

Additional observations from a re-analysis of the deposited data

Results flagged for a closer look

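Transcripts annotated to Pcdhgc4, which has no line in the gene table, held 6371 estimated counts over all cells and at least 10 counts in 40 cells. They were flagged because no comparison uses them under their own name.

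For 6 genes the log2 ratio of cells labelled Slc26a4-/- over Slc26a4+/+, over all run dates, was past 2-fold in one direction in IMC-like cells and past 2-fold in the other in pendrin cells. The difference between the cell types was not tested. For none of the 6 did both ratios pass 2-fold in those directions within run date 2 and within run date 4 alike, the 2 run dates that hold both labels. Pcdhb14 stood at 2.07 in IMC-like cells (-1.90 on run date 2, 3.90 on run date 4) and at -1.12 in pendrin cells (4.06 and -0.60). Pcdhgb8 stood at 2.80 (3.66 and 3.31) and at -1.68 (1.10 and -1.29).

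Pcdhga9 stood at 1.10 in IMC-like cells (3.82 and 2.95 within the run dates) and at -3.39 in pendrin cells (0.15 and 0.08), the latter from 2 counts in pendrin cells labelled Slc26a4-/-. There its share of counts was 26.1 times as high in cells labelled Slc26a4+/+ (95% counting interval 7.06 to 218.5). Pcdhga4 stood at -1.25 (-1.94 and 2.93) and at 5.82 (6.26 and 3.75), and Pcdhgb1 at -3.17 (0.15 and 1.71) and at 3.72 (1.64 and 1.07). Pcdhga5 stood at -3.18 (1.02 and -3.68) and at 4.24, with 0 counts under both labels in pendrin cells on run date 2 and 5.84 on run date 4. Pcdhga4 and Pcdhga5 had 0 counts in Slc26a4+/+ pendrin cells, so their pendrin ratios depend on the pseudocount. Against a floor of 3 counts they were at least 623-fold and at least 665-fold higher, with the gene found in 4 and in 2 of 22 cells, and these bounds cover counting error only.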

How the results depend on the processing

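Over 15 results and their alternatives, 25 values moved by more than the spread between collection days (for counts, by more than 1.5 times). The number of genes found per cell leaned on run date 4: with 1 run date left out at a time, the difference between cells labelled Slc26a4-/- and Slc26a4+/+ ranged from 0.09 to 1.72 genes in IMC-like cells and from 0.12 to 2.22 in pendrin cells, lowest without run date 4. Within run date 4 it was 2.64 in IMC-like and 2.00 in pendrin cells. The difference for Slc26a4+/- cells, -0.05 in IMC-like and 1.38 in pendrin cells, became 1.67 and 2.79 when 1 count was enough, and their log2 difference in summed level in IMC-like cells was 1.12 within run date 4 against 0.28. By the median over cells, MC-like cells stood at a log2 difference of -2.76 in place of -1.25.

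Counts of genes past 2-fold depended most on the settings. In IMC-like cells the 13 higher genes became 20 within run date 2, 7 with a pseudocount of 10 CPM and 11 to 22 with 1 run date left out. The 17 lower genes became 6 within run date 2, 5 within run date 4, 6 with that pseudocount, 7 among genes with a mean of at least 10 CPM, 11 without each gene's highest cell, and 8 to 20 with 1 run date left out. In pendrin cells the 13 higher genes became 8 without the highest cell. The 19 lower genes became 3 within run date 2, 11 within run date 4, 5 with a pseudocount of 10 CPM, 8 at a mean of at least 10 CPM, 9 without the highest cell, and 11 to 21 with 1 run date left out. The 26 calls by cell type became 11 with a pseudocount of 10 CPM and 15 at a mean of at least 10 CPM. Leaving out the highest cell was chosen after seeing the data. The causes were not tested. No paired analysis was possible because the result comes from no test and replicate numbers only name cells.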
